A study of Mus musculus with 8 samples.

Results

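The adipogenic transcription factors of the PPAR and C/EBP families and their partners were described here in arteries that had been injured 14 days earlier. Members were taken as the noncontrol probes whose gene name on the array was Pparg, Ppara, Ppard, Cebpa, Cebpb, Cebpd, Rxra, Ebf1, Ebf2 or Zfp423. This gave 10 genes of 36492 on the array, measured by 15 probes of 55681. Of all genes, 23830 had a probe bright enough to be tested.

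The study measured gene expression in wire-injured carotid arteries of mice lacking apolipoprotein E, which develop high plasma cholesterol, and compared arteries with and without miR-126, a small RNA found mainly in endothelium, during growth of a neointima. The control group was 4 miR-126+/+/ApoE-/- mice and the other group 4 miR-126-/-/ApoE-/- mice, so that ApoE was deleted in both. All were females aged 6 weeks, with a mixed genetic background and a western-type diet, and each artery was measured on 1 single-colour Agilent array. Uninjured arteries were not analysed here, and the labels give 4 animals per group. A probe for miR-126 itself was not analysed here, so that the deletion was not checked on these arrays.

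Peroxisome proliferator-activated receptors (PPARs) are nuclear receptors for fatty acids and their derivatives, and they bind DNA as pairs with a retinoid X receptor such as RXRA. In fat cell formation C/EBPB and C/EBPD act early and turn on PPARG and C/EBPA, which then hold each other's expression and that of the genes of lipid storage. EBF1, EBF2 and ZFP423 act upstream or beside them and mark cells committed to the fat lineage. Around arteries these factors are known from perivascular fat, but they are not confined to it. PPARD, C/EBPB and C/EBPD are also present in smooth muscle cells and macrophages, and macrophages use PPARG and C/EBPA as well.

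The RefSeq table of promoters (assembly GRCm38.p6) held 13 starts for 8 of the 10 members, and the 250 bases before each start were searched on both strands for 7 motifs. The promoters of Pparg, Cebpa and Ppara are printed because the levels of these members followed the fat cell markers of the arteries (described last). The sequence of miR-126a-3p, a mature strand of the miR-126 deleted in the mutant mice, is printed as well. Capitals mark the motifs in the promoters and the seed (bases 2 to 8) in the microRNA, which lies at chr2:26591402-26591423.

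Pparg, most upstream start, chr6:115360894-115361143, + strand: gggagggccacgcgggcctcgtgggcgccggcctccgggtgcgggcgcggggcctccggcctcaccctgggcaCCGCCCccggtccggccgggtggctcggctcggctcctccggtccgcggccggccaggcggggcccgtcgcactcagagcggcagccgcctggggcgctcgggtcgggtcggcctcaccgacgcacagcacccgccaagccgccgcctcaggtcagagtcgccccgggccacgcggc
Pparg, most downstream start, chr6:115421816-115422065, + strand: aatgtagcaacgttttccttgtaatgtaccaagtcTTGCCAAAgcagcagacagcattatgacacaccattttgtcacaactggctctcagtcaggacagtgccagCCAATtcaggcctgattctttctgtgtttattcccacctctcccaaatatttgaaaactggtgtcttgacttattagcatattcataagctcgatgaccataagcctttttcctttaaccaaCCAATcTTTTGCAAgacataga
Cebpa, chr7:35119043-35119292, + strand: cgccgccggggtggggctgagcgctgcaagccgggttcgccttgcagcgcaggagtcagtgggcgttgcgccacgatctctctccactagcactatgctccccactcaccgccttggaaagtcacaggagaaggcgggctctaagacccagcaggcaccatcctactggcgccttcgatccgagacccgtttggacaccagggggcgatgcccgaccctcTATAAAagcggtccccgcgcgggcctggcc
Ppara, chr15:85735526-85735775, + strand: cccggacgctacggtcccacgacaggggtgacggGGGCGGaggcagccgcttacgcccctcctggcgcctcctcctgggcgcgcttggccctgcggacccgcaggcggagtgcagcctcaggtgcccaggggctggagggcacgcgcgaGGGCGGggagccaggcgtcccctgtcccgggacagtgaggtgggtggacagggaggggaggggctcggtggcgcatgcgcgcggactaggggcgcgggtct
mmu-miR-126a-3p: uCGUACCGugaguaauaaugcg

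The most downstream Pparg promoter held 2 copies of TTGCNNAA, a form of the C/EBP site with an open centre, at bases -215 to -208 and -16 to -9 from the start. It also held 2 CCAAT boxes, at -144 to -140 and -22 to -18, and its GC content was 40.8%. The most upstream Pparg promoter had a GC content of 82.4% and held a single GGGCGG, the Sp1 box. The Cebpa promoter held a TATAAA at -30 to -25, and the Ppara promoter held 2 GGGCGG motifs. Among all 32851 promoters, 9.56% held TTGCNNAA, 33.8% CCAAT, 12.4% TATAAA and 32.7% GGGCGG. The other motifs searched, TTGCGCAA (0.164% of promoters; every match is also one of TTGCNNAA), the direct repeat bound by PPARs (0.0335%) and the EBF palindrome (0.779%), had no match in these 13 windows. The CCAAT boxes of the downstream Pparg promoter do not overlap its TTGCNNAA motifs, and a match describes the sequence only.

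The 15 member probes were well above background on all 8 arrays. Across the arrays 55.9% to 61.5% of probes were well above background, and the 75th percentile of signal, to which every value below is scaled, ran from 518 to 736 intensity units in miR-126+/+ and from 569 to 715 in miR-126-/- mice. All arrays lay on 1 slide. The miR-126+/+ arrays filled its first row and the miR-126-/- arrays its second, so that row and genotype cannot be told apart. Arrays of the same replicate number lay in the same slide column. The spatial trend in signal, as a root mean square, ran from 2.05 to 2.25 in miR-126+/+ and from 2.35 to 3.04 in miR-126-/- arrays. The array of miR-126-/- mouse 4 had a dim area, in which no member spot lay. Endothelial, smooth muscle and macrophage marker genes were above background on every array. Skeletal muscle markers were high in miR-126+/+ mouse 2 and miR-126-/- mouse 1, by 2.97 and 2.68 log2 units against their mean over the arrays, and without these mice the differences given below are 0.97 for Pparg and 1.64 for Ppara, and those of Ppard and Rxra, near 0, change sign.

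None of the member probes passed the test: 0 of 15 had an adjusted p under 0.05 by limma with Benjamini-Hochberg adjustment over 32484 probes, where 0.0369% of all probes did. At an unadjusted p under 0.05 there were 5 member probes, against 9.85% of all probes, and all 5 were higher in miR-126-/- mice, as 6.33% of all probes were. The genotypes did not overlap for 3 member probes, all of Ppara and all higher in miR-126-/- mice, where 3.68% of all probes were higher without overlap. Of the 10 genes, each taken by its brightest probe, 8 were higher in miR-126-/- mice by any amount, as 51.7% of all genes were, and the median difference was 0.28 log2 units against 0.0076 over all genes. Differences are miR-126-/- minus miR-126+/+ throughout, on the log2 scale.

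**Figure D1:**
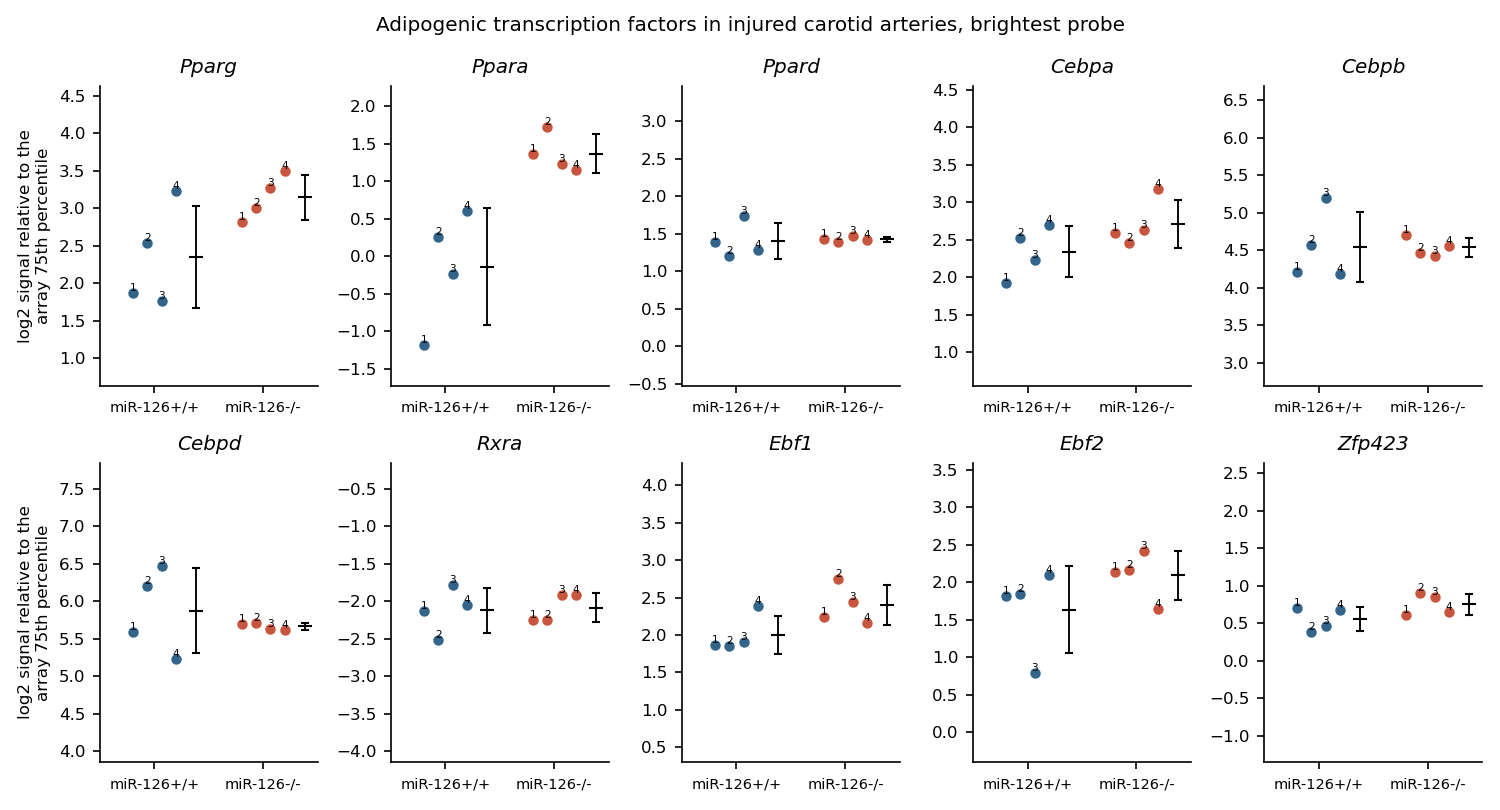
Level of each of the 10 genes by its brightest probe, as log2 signal relative to the 75th percentile of the array (y axis), in each mouse, numbered, of the 2 genotypes (x axis); bars give the mean and SD of 4 mice, and each panel spans the same number of log2 units. The Ppara points of the genotypes do not overlap, Pparg of miR-126+/+ mouse 4 lies among the miR-126-/- mice, and Cebpd runs from 5.23 to 6.47 in the miR-126+/+ mice and from 5.62 to 5.71 in the miR-126-/- mice.

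Among the nuclear receptors, Pparg, the receptor needed to form and maintain fat cells, was measured by 1 probe (A_51_P106799, chr6:115440213-115440272, mm9, + strand) that the array annotates to both RefSeq transcript forms, so that products of the starts printed above were not separated. Its level was 1.87, 2.54, 1.77 and 3.23 in miR-126+/+ mice 1 to 4 and 2.82, 3.01, 3.27 and 3.50 in miR-126-/- mice 1 to 4. Mice 1 and 3 of the miR-126+/+ group were the lowest and mouse 2 the next, whereas mouse 4 lay between miR-126-/- mice 2 and 3, and the groups overlapped. The means were 2.35 ± 0.68 (SD, n = 4) and 3.15 ± 0.30 (SD, n = 4). The difference was 0.79 ± 0.33 (SE), a 1.73-fold ratio with a 95% interval of 1.03 to 2.93, and limma gave an adjusted p of 0.484. This probe was spotted 10 times on an array, and its repeat spots differed within an array by an SD of 0.0438 to 0.10, under the spread between the mice. Leaving out each mouse in turn gave Pparg differences of 0.60 to 1.09.

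Ppara, the receptor that drives fatty acid oxidation genes in liver, muscle and brown fat, was measured by 3 probes. By the brightest (A_55_P2055854, chr15:85632110-85632169, mm9, + strand) its level was -1.19, 0.26, -0.24 and 0.61 in miR-126+/+ mice 1 to 4 and 1.36, 1.73, 1.23 and 1.15 in miR-126-/- mice 1 to 4. All 4 miR-126-/- mice were above every miR-126+/+ mouse, with a gap of 0.55 between the nearest pair. The difference was 1.51 ± 0.36 (SE), a 2.85-fold ratio with a 95% interval of 1.60 to 5.07, and it did not pass after adjustment by limma (adjusted p = 0.228, unadjusted p = 0.0031). With each mouse left out in turn the difference ran from 1.16 to 1.76.

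The other Ppara probes gave the same direction at different sizes. Probe A_55_P2071596 (chr15:85637193-85637252) read -2.68, -0.95, -1.89 and -0.66 in the miR-126+/+ mice and 0.24, 0.67, -0.28 and -0.10 in the miR-126-/- mice, a difference of 1.68 ± 0.44 (SE; limma adjusted p = 0.271). Probe A_55_P2071601 (chr15:85632534-85632593) read -0.38, -0.37, -0.12 and -0.16 against 0.24, 0.34, -0.09 and 0.11, a difference of 0.41 ± 0.12 (SE; limma adjusted p = 0.322), and its genotypes were only 0.0277 apart at the nearest pair. The first and second probes followed each other closely over the 8 arrays (r = 0.990), while the third followed them less closely (r = 0.826 and 0.823). The third probe's difference was smaller than that of the first by 1.10 and than that of the second by 1.27. An exact permutation test (70 ways to divide the mice) gave p = 0.0286 for each, the smallest this design allows (two-sided), and 0.124 after adjustment over the 13 comparisons made between member genes or probes. Neither passed after this adjustment, which the smallest p can pass only when most of the 13 comparisons reach it. Which transcripts each probe reads was not tested.

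**Figure D2:**
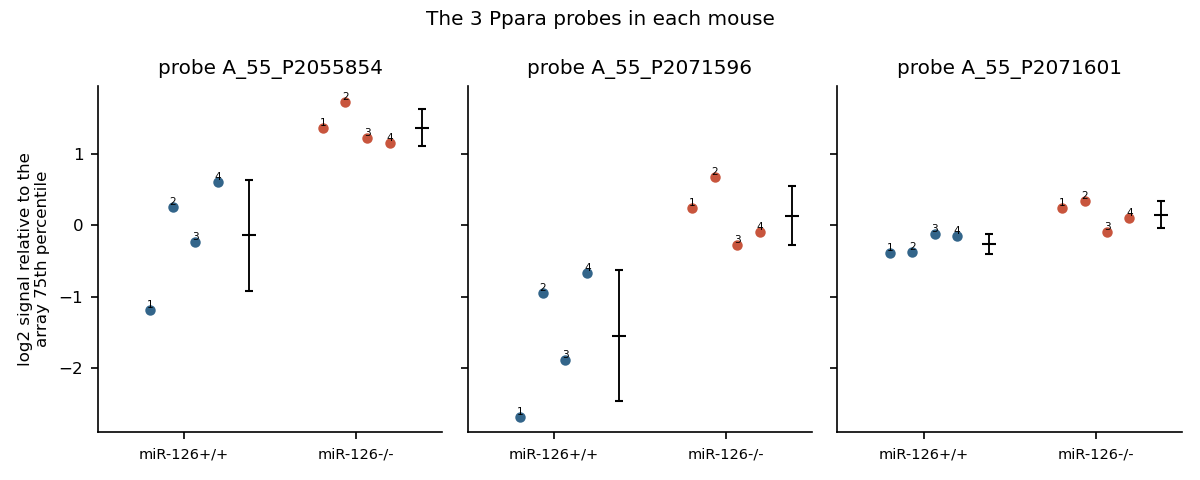
Log2 signal relative to the array 75th percentile (y axis) of the 3 Ppara probes in each numbered mouse of the 2 genotypes (x axis), with mean and SD of 4 mice. In each panel all miR-126-/- points lie above all miR-126+/+ points, by 0.55, 0.39 and 0.0277 at the nearest pair from left to right.

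Ppard, the widely expressed member of the family (probe A_66_P124715, chr17:28438298-28438357, mm9), stood at 1.39, 1.20, 1.74 and 1.28 in miR-126+/+ mice and at 1.42, 1.39, 1.47 and 1.42 in miR-126-/- mice. The miR-126-/- values lay within the range of the miR-126+/+ values, whose highest was mouse 3. The difference was 0.02 ± 0.13 (SE; limma adjusted p = 0.969), with a 95% interval of -0.27 to 0.31. The Ppara difference exceeded that of Ppard by 1.49 (exact permutation test, p = 0.0286, adjusted p = 0.124), and those of Pparg and Ppard differed by 0.77 (exact permutation test, p = 0.171, adjusted p = 0.446). Neither passed after adjustment over the 13 comparisons. For Ppara against Ppard the p-value was the smallest this design allows, which passes only when most of the 13 comparisons reach it.

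Rxra, the shared partner of the PPARs, was measured by 2 dim probes. Probe A_51_P307370 (chr2:27615316-27615375, mm9) read -2.12, -2.51, -1.78 and -2.05 in miR-126+/+ mice and -2.25, -2.25, -1.92 and -1.91 in miR-126-/- mice. Its difference was 0.03 ± 0.17 (SE; limma adjusted p = 0.968), with a 95% interval of -0.36 to 0.43 that lies on both sides of 0. Probe A_55_P2074331 (chr2:27618781-27618839) read -2.76, -2.89, -2.68 and -2.46 against -2.54, -2.14, -2.37 and -2.57, a difference of 0.29 ± 0.14 (SE; limma adjusted p = 0.554). The probes hardly followed each other over the 8 arrays (r = 0.190), and their differences were 0.26 apart (exact permutation test, p = 0.286, adjusted p = 0.464).

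Among the C/EBP genes, Cebpa, the factor of the mature fat cell (probe A_52_P168567, chr7:35906517-35906576, mm9), stood at 1.92, 2.52, 2.23 and 2.70 in miR-126+/+ mice and at 2.59, 2.45, 2.63 and 3.18 in miR-126-/- mice. Only miR-126-/- mouse 4 was above every miR-126+/+ mouse. The difference was 0.37 ± 0.22 (SE), with a 95% interval of -0.13 to 0.87 (limma adjusted p = 0.660). Without miR-126+/+ mouse 1 or miR-126-/- mouse 4 it was 0.23 or 0.21.

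Cebpb and Cebpd, the early factors, which inflammatory cytokines also induce, showed no shift of the group means beyond the spread between mice. Cebpb (probe A_55_P2165869, chr2:167515828-167515887, mm9) stood at 4.21, 4.58, 5.20 and 4.19 in miR-126+/+ mice and at 4.70, 4.46, 4.43 and 4.56 in miR-126-/- mice, a difference of -0.0049 ± 0.22 (SE; 95% interval -0.52 to 0.51; limma adjusted p = 0.997). Cebpd (probe A_51_P444447, chr16:15888459-15888518, mm9) stood at 5.59, 6.21, 6.47 and 5.23 against 5.70, 5.71, 5.62 and 5.62, a difference of -0.21 ± 0.26 (SE; 95% interval -0.80 to 0.38; limma adjusted p = 0.846). Without miR-126+/+ mouse 3, 2 or 4 the Cebpd difference was -0.01, -0.10 or -0.43. Mouse 3 of the miR-126+/+ group was the highest of all for both, as it was for Ppard. The SD of Cebpd was 0.57 among the miR-126+/+ mice and 0.0486 among the miR-126-/- mice; the difference between these spreads was not tested.

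The lineage factors gave differences of 0.10 to 0.46, none past the test. Ebf1, which acts in fat precursors and in B cells (probe A_55_P2065513, chr11:44818438-44818497, mm9), stood at 1.87, 1.85, 1.90 and 2.38 in miR-126+/+ mice and at 2.25, 2.75, 2.45 and 2.16 in miR-126-/- mice, a difference of 0.40 ± 0.17 (SE; limma adjusted p = 0.504). The groups overlapped through miR-126+/+ mouse 4. Ebf2, which marks brown and beige fat precursors (probe A_51_P386562, chr14:68048145-68048204, mm9), stood at 1.81, 1.84, 0.78 and 2.09 against 2.14, 2.17, 2.41 and 1.65, a difference of 0.46 ± 0.30 (SE; limma adjusted p = 0.700). The lowest value was that of miR-126+/+ mouse 3, without which the difference was 0.17, and miR-126-/- mouse 4 lay below miR-126+/+ mice 1, 2 and 4. Zfp423, a determinant of white fat precursors, gave differences of 0.19 ± 0.12, 0.10 ± 0.13 and 0.16 ± 0.17 (SE) by its 3 probes, with overlapping genotypes for each. Its brightest probe read 0.71, 0.39, 0.46 and 0.68 in miR-126+/+ mice and 0.62, 0.90, 0.85 and 0.65 in miR-126-/- mice (limma adjusted p = 0.675). This probe (A_55_P2102335, chr8:90185710-90185769, mm9, - strand) and A_51_P328442 lie close together, and A_55_P2148921 lies at chr8:90210329-90210388. The second read -1.23, -1.66, -1.15 and -1.21 against -1.36, -1.15, -1.23 and -1.13, and the third -1.13, -1.15, -1.19 and -0.52 against -1.01, -0.75, -0.71 and -0.89. In the third, miR-126+/+ mouse 4 was above every other mouse, as it was in no other Zfp423 probe. The 3 pairs of Zfp423 probes differed from each other in their genotype difference by at most 0.10 (exact permutation tests, p from 0.429 to 0.829).

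**Figure D3:**
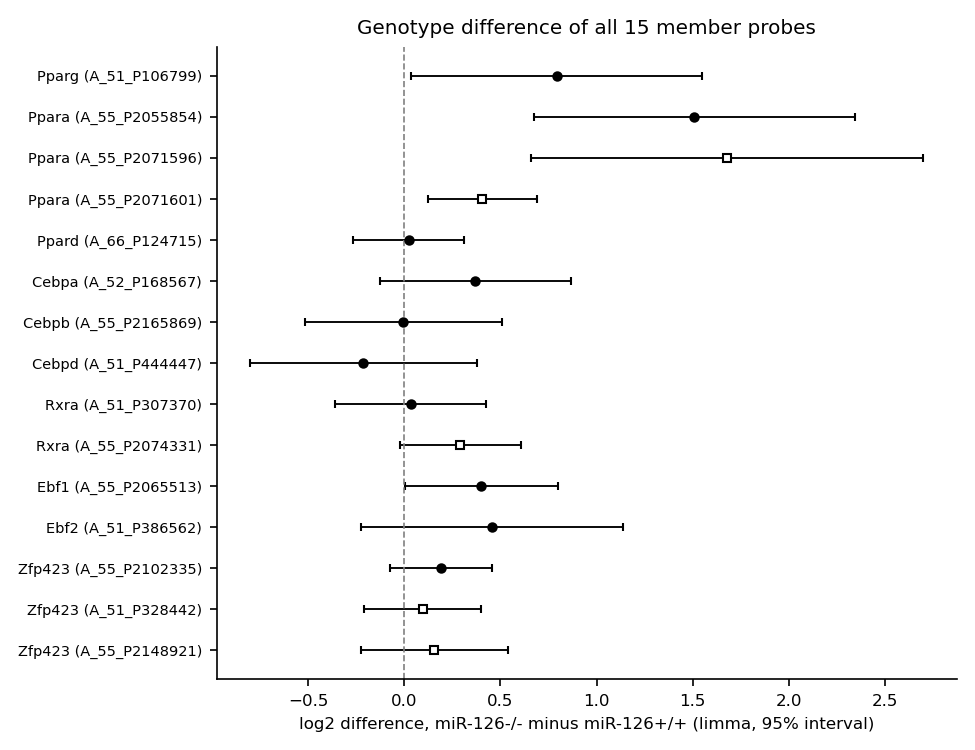
Difference miR-126-/- minus miR-126+/+ in log2 units (x axis) of the 15 member probes (y axis) with 95% intervals from limma; filled circles are the brightest probe of a gene and open squares its other probes. The intervals of Pparg, the 3 Ppara probes and Ebf1 lie above 0 before adjustment for the number of probes tested, and all others include 0.

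Most listed target genes of the fat cell factors had higher means in miR-126-/- mice, and none of the 124 genes on the lists of targets and regulators passed the adjusted threshold, which 0.0462% of all genes did. Of 25 listed PPARG target genes, 23 were higher, 20 of them at an unadjusted p under 0.05 and 10 without overlap, with a median difference of 1.03 against 0.0076 over all genes. Over all genes, 6.73% were higher at an unadjusted p under 0.05 and 4.04% were higher without overlap. Cidea, a lipid droplet protein, was higher by 1.90 ± 0.42 (SE), Slc2a4, the insulin-responsive glucose transporter, by 1.51 ± 0.33, Pck1, an enzyme of glyceroneogenesis, by 1.41 ± 0.32, and Aqp7, a glycerol channel, by 1.31 ± 0.26. Their limma adjusted p-values ran from 0.172 to 0.214. Of 12 listed C/EBP target genes of the fat cell, 4 of which are also on the PPARG list, 11 were higher and 7 were so at an unadjusted p under 0.05, with a median of 0.90.

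Listed PPARA target genes of fatty acid oxidation were higher in 18 of 20 tested cases, 11 at an unadjusted p under 0.05 and 8 without overlap, with a median of 0.57. Cpt1b, the muscle and brown fat form of the enzyme that admits fatty acids to mitochondria, stood at -1.67, -0.42, -0.71 and -0.60 in miR-126+/+ mice and at 0.97, 1.03, 1.15 and 0.91 in miR-126-/- mice. Every miR-126-/- mouse was above every miR-126+/+ mouse, and the difference of 1.86 ± 0.26 (SE) had a limma adjusted p of 0.0728. Ehhadh, a peroxisomal enzyme of the same pathway, was higher by 1.99 ± 0.42 (SE; limma adjusted p = 0.183) and Cpt2, which acts after Cpt1b inside mitochondria, by 1.06 ± 0.20 (SE; limma adjusted p = 0.150). Cpt1a, the liver form of the carnitine transferase, differed by 0.02 ± 0.09 (SE). It was named after its value was seen.

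Partners and coregulators of the receptors gave no common shift, with 10 of 18 higher and a median of 0.02. Ppargc1b, a coactivator of mitochondrial genes that was above background on 3 of 4 miR-126+/+ arrays, was higher by 1.30 ± 0.38 (SE), Hdac3, a corepressor subunit, by 0.28 ± 0.09 and Nr1h3, the oxysterol receptor LXR alpha, by 0.39 ± 0.13, whereas Tle3, a cofactor of white fat genes, was lower, with a difference of -0.34 ± 0.13. Their limma adjusted p-values ran from 0.307 to 0.461. Other C/EBP family genes were higher in 2 of 4 cases, with a median of 0.04. Other adipogenic regulators were higher in 9 of 16 (median 0.03; Srebf1, a regulator of lipid synthesis, 0.93 ± 0.30 SE, limma adjusted p = 0.355; Klf5 -0.80 ± 0.43 SE, limma adjusted p = 0.619). Inhibitors of adipogenesis were higher in 9 of 21, with a median of -0.04. Among these Dlk1, which keeps preadipocytes undifferentiated, stood at -0.02, 0.09, -0.64 and 0.0029 in miR-126+/+ mice and at 0.85, 1.31, 0.82 and 0.49 in miR-126-/- mice. Its difference was 1.01 ± 0.22 (SE; limma adjusted p = 0.189), without overlap.

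Listed inflammatory target genes of C/EBPB and C/EBPD were higher in 4 of 15 cases, with a median of -0.13. Il1rn, the interleukin 1 receptor antagonist, was the 1 gene of this list at an unadjusted p under 0.05 and was lower, as 3.36% of all genes were, with a difference of -0.70 ± 0.28 (SE; limma adjusted p = 0.465). The mean of the list was highest in miR-126+/+ mouse 3, at 1.22 log2 units above its mean over the 8 mice, the mouse highest in Cebpb and Cebpd. Over the 8 mice the list followed Cebpb with r = 0.865 (permutation p = 0.0159, adjusted p = 0.0954) and rho = 0.619 (permutation p = 0.115, adjusted p = 0.383), but r was 0.597 without the 2 mice farthest from the median of the list, and the relation rests on those mice. The adjustment ran over 30 relations, of each member with this list and with 2 marker lists of fat.

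**Figure D4:**
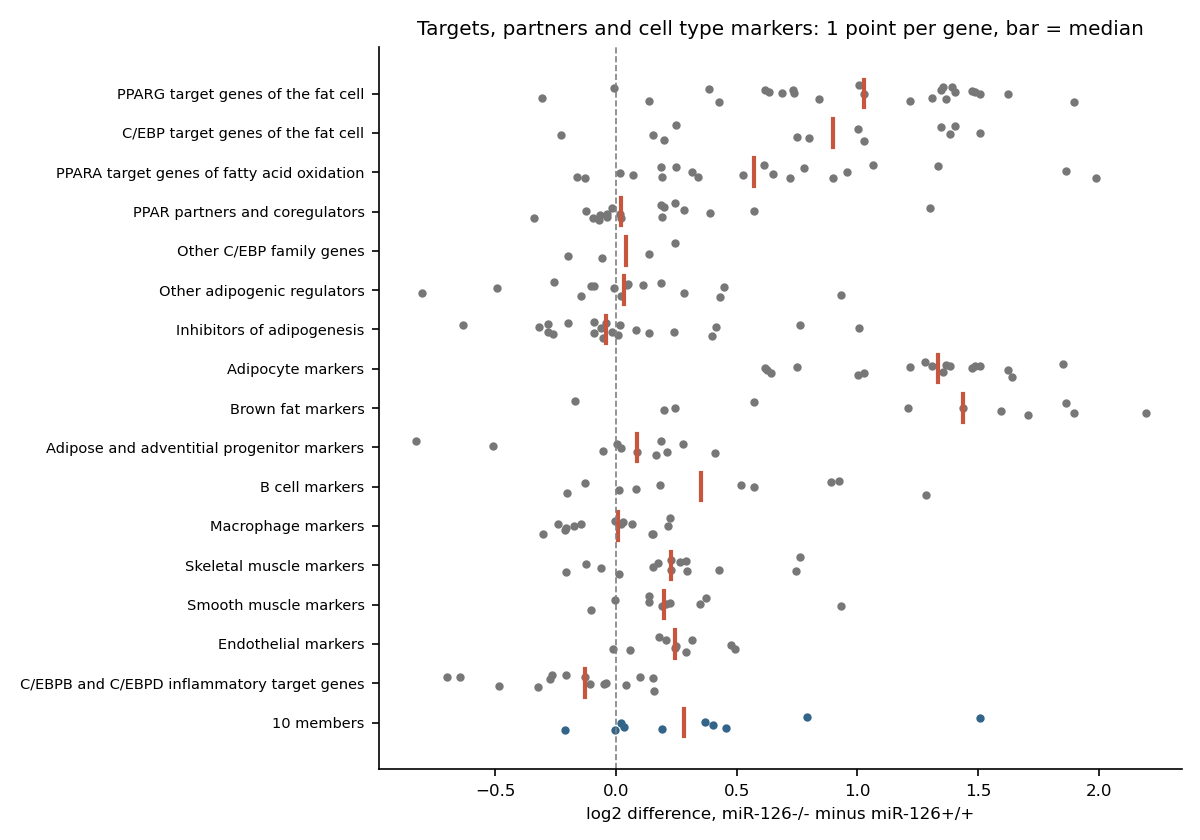
Difference miR-126-/- minus miR-126+/+ in log2 units (x axis) of the brightest probe of each gene, for the listed targets, partners and markers and for the 10 members (y axis); each point is a gene and each bar the median. The adipocyte and brown fat markers have medians of 1.33 and 1.44, the targets of PPARG of 1.03, and the coregulators of 0.02; none of these genes passed the adjusted threshold.

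The arrays also differed in markers of fat cells. All 18 listed adipocyte markers were higher in miR-126-/- mice, with a median of 1.33. Of these, 14 were so at an unadjusted p under 0.05 and 9 without overlap. On the PPARG target list are 10 of the 18, and on the C/EBP target list 5. Their summed level, as log2 of the scaled signals added up, ran from 8.42 to 9.55 in miR-126+/+ and from 9.54 to 10.35 in miR-126-/- mice. Of the defining markers, Adipoq, Fabp4 and Cfd were above background on every array, while 2 of the 18 were below it on some miR-126+/+ arrays. Of 11 tested brown fat markers 10 were higher, with a median of 1.44 and summed levels of 4.69 to 6.60 and of 7.05 to 8.03. This list shares Cidea with the PPARG targets, Cpt1b with the PPARA targets, and Ppargc1a and Prdm16 with the coregulators. Ucp1, the uncoupling protein that defines brown fat, stood at -0.53, 4.01, 3.09 and 0.72 in miR-126+/+ mice and at 4.01, 2.82, 5.28 and 3.96 in miR-126-/- mice, so that it was present in both groups. In whole arteries more fat cells and more RNA per fat cell cannot be told apart.

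Progenitor markers of fat and adventitia were higher in 8 of 11 cases, with a median of 0.09. Dcn, the proteoglycan decorin, was lower in every miR-126-/- mouse, with a difference of -0.83 ± 0.20 (SE; limma adjusted p = 0.225). B cell markers, listed because Ebf1 also acts in B cells, were higher in 8 of 10 cases with a median of 0.35. Their summed level ran from 1.72 to 2.30 in miR-126+/+ and from 1.77 to 2.68 in miR-126-/- mice, which overlap, and the part of B cells in the Ebf1 difference was not tested. Macrophage markers were higher in 7 of 14 cases, with a median of 0.0090.

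Pparg followed the adipocyte markers mouse by mouse. The mean of the markers, each centred over the 8 mice, was -1.26, -0.37, -1.11 and 0.28 in miR-126+/+ mice 1 to 4 and 0.11, 0.57, 0.77 and 1.02 in miR-126-/- mice 1 to 4. The miR-126+/+ mouse that had Pparg within the miR-126-/- range, mouse 4, was also the one whose marker mean was above that of a miR-126-/- mouse. Over the 8 mice r was 0.976 (permutation p = 0.00035, adjusted p = 0.0104) and rho 0.952 (permutation p = 0.0011, adjusted p = 0.0342). Without the 2 mice farthest from the median, miR-126+/+ mice 1 and 3, r was 0.917, and with the genotype means removed it was 0.981. The Pparg difference was smaller than that of the marker mean by 0.44 (exact permutation test, p = 0.0286, adjusted over 20 such tests 0.0952). This p-value too is the smallest the design allows.

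Cebpa followed the markers with r = 0.858 (permutation p = 0.0026, adjusted p = 0.0290) and rho = 0.810 (permutation p = 0.0218, adjusted p = 0.276). Ppara did so with r = 0.887 (permutation p = 0.0032, adjusted p = 0.0290) and rho = 0.714 (permutation p = 0.0576, adjusted p = 0.297). Without miR-126+/+ mice 1 and 3, r was 0.618 and 0.615, so both relations rest in part on those mice. Ppara followed the brown fat markers with r = 0.895 (permutation p = 0.0039, adjusted p = 0.0290) and rho = 0.762 (permutation p = 0.0368, adjusted p = 0.276), with r = 0.813 without the 2 farthest mice. With the genotype means removed, r was 0.827 for Cebpa and 0.688 for Ppara with the adipocyte markers, and 0.668 for Ppara with the brown fat markers. Among the 4 miR-126-/- mice alone Ppara followed neither the adipocyte markers (r = -0.41) nor the brown fat markers (r = -0.70). Among the 4 miR-126+/+ mice r was 0.89 for both. Within the miR-126-/- group Ppara was highest in mouse 2, whose brown fat marker mean was the lowest of the 4. In miR-126+/+ mouse 4 Ppara stood below all miR-126-/- mice, as its brown fat marker mean did, at -0.39 against 0.31 for the lowest miR-126-/- mouse. None of the other relations among the 30 had an adjusted p under 0.05. The permutation p-values of all 30 relations came from shuffling the mice without regard to genotype. A genotype difference in both values therefore enters them, and they do not test a relation within a genotype.

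**Figure D5:**
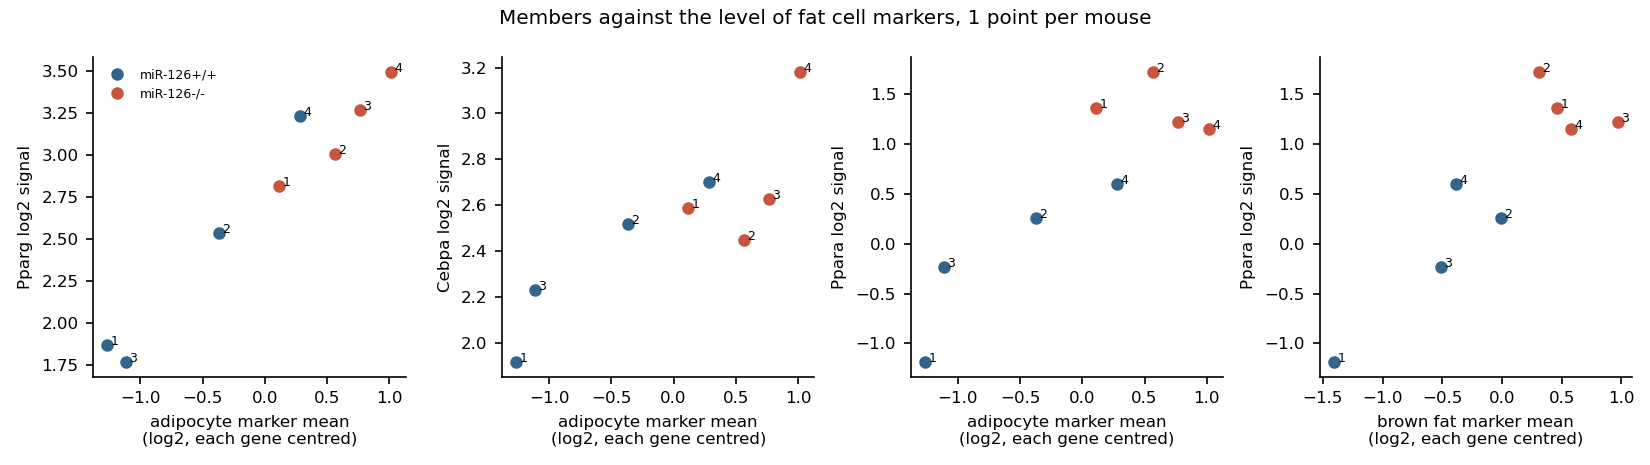
Log2 signal of Pparg, Cebpa and Ppara (y axes) against the mean of adipocyte markers, and of Ppara against that of brown fat markers (x axes, log2 units, each marker centred over the 8 mice); 1 numbered point per mouse, blue for miR-126+/+ and red for miR-126-/-. Pparg lies near a line through both genotypes (r = 0.976), while for Ppara the miR-126-/- points lie above all miR-126+/+ points.

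When the adipocyte marker mean was added to the fit as a covariate, the Pparg difference was -0.31 ± 0.16 (SE), that of Cebpa -0.22 and that of Ppara 0.65 ± 0.45 (SE), with unadjusted limma p-values of 0.0892 for Pparg and 0.194 for Ppara and none past the adjusted threshold. With the brown fat marker mean, an alternative added after the data were seen, they were 0.11, -0.14 and 0.54. No member probe then had an unadjusted p under 0.05 in either fit, and over all probes 1473 and 1273 did, against 3200 without a covariate. Both covariates differed between the genotypes. Of the adipocyte markers, 10 are listed targets of PPARG and 5 are listed C/EBP targets. The brown fat markers include Cidea, a listed target of PPARG, and Cpt1b, a listed target of PPARA.

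The genes most like each member over the 8 mice were taken among 13378 genes above background on all arrays, by Pearson's r, as a description. For Pparg they were Myorg (r = 0.987), Snn (0.985) and Mlxipl (0.983), and with the genotype means removed Ces1d (0.991), Myorg (0.984) and Pcx (0.982). For Cebpa they were Ndufa10 (0.979), Acads (0.967) and Slc1a3 (0.953), and for Ppara Gdf5 (0.974), Macrod1 (0.966) and Phkg1 (0.966). Cebpb was nearest to Pdcd1 (0.983), Adamts4 (0.971) and Tdg (0.958), and Cebpd to Suv39h2 (0.965), Cit (0.960) and Khdc3 (0.959). Ppard was nearest to Tnfrsf23 (0.986), Nbeal2 (0.975) and Creb3l3 (0.972), and Ebf1 to Akr1c14 (0.977), Dcaf8 (0.976) and Abcc10 (0.974). Rxra was nearest to Gzma (0.973), Ebf2 to Ephx4 (0.969) and Zfp423 to Mbd1 (0.964). Among the members themselves, the pairs Pparg and Cebpa (r = 0.870) and Cebpb and Cebpd (r = 0.843) had the highest r over the 8 mice, and Cebpb and Ebf2 (r = -0.74) and Cebpd and Ebf2 (r = -0.71) the lowest. These were picked from many correlations over 8 mice and carry no test.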

How the data were processed

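Per the labels' protocols, 100 ng of total RNA per mouse was copied into Cy3-labelled cRNA for Agilent arrays. Per the file headers, signals were read with Agilent Feature Extraction 10.7.3.1, named in the submitters' processing notes, and the deposited values are intensity on a linear scale after background subtraction; positions are on mm9. A value table that the authors deposited has these intensity values too, uncentred and unscaled (column medians 41.4 to 57.0).

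Control and outlier spots were left out, spots of a probe averaged, and values taken as log2 of the signal minus log2 of the array's 75th percentile over noncontrol probes. Probes well above background on at least 3 of 4 arrays of a genotype were tested (32484) with limma 3.58.1 in R 4.3.3 (lmFit, eBayes, no covariate), two-sided, with Benjamini-Hochberg adjustment and a threshold of 0.05. Single values were tested by exact permutation of the arrays in Python 3.11.15 with scipy 1.17.1. On simulated data with 200 of 32430 probes changed, the fit recovered 52.0% of 1 log2 unit changes and 87.0% of 2 log2 unit changes. On average 7.33 and 14.3 unchanged probes passed as well. The simulated noise was independent between probes, and in the real data 12 of 32484 probes passed. The p-value needed to pass is lower when fewer probes pass, so that these shares do not carry over to the real data. The number of arrays limits the precision. The labels give 4 animals per group.

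All probes of the 10 members were described, and a gene's value is that of its brightest tested probe. From each list the genes named are up to 4 of smallest unadjusted p; 1 gene that this rule names is not reported here. Other genes, among them Cpt1a, Ucp1, Adipoq, Fabp4 and Cfd, were named after their values were seen. Likeness was ranked by Pearson's r. Gene names came from the files, updated through RefSeq accessions for 26413 probes. The members and lists were chosen with earlier results of these data known. The labels do not say whether equal replicate numbers pair the mice. The deviations of same-numbered mice correlated at 0.15, -0.30, -0.01 and 0.02, which cannot exclude a pairing. Alternatives were other background correction, scaling, filters, variance models, covariates and arrays left out.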

Additional observations from a re-analysis of the deposited data

Results flagged for a closer look

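The values of 30 sets of 4 mice (15 probes in each genotype) were checked for a mouse far from the others, by the gap to the nearest mouse divided by the range of the group, with a limit of 0.829. Chance exceeds this limit in about 1 of 20 such sets, and 3 of the 30 exceeded it, all in miR-126+/+ mice. Ebf1 had a value of 0.902, through a high level in mouse 4 (2.38 against 1.85 to 1.90). Zfp423 had 0.910 by probe A_55_P2148921, also through a high level in mouse 4 (-0.52 against -1.19 to -1.13), and 0.833 by probe A_51_P328442, through a low level in mouse 2 (-1.66 against -1.23 to -1.15).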

How the results depend on the processing

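In none of the 22 alternatives did a member probe pass the threshold. The difference of Ppara kept its direction in all of them, from 0.54 to 1.84, as did those of Ebf1 (0.15 to 0.53), Ebf2 (0.08 to 0.61) and Zfp423 (0.13 to 0.36). With the adipocyte marker covariate the differences of Pparg (-0.31), Cebpa (-0.22), Cebpb (0.31) and Cebpd (0.20) changed sign, and with the brown fat covariate that of Cebpa (-0.14). Cebpb also changed sign with normexp background correction (0.0540) and array weights (0.13), Rxra with normexp (-0.0340) and without the pair of muscle-rich arrays (-0.0430), and Ppard without that pair (-0.0440). Leaving out 1 array at a time gave -0.0445 to 0.133 for Ppard, -0.12 to 0.21 for Cebpb and -0.10 to 0.15 for Rxra, and, with no change of sign, 0.21 to 0.49 for Cebpa and -0.43 to -0.01 for Cebpd. The cause was not tested.

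Among the 124 listed genes, 1, Cpt1b, passed with normexp, with array weights and without miR-126+/+ replicate 1, so that leaving out arrays gave 0 to 1. The number of probes passing among all tested moved from 12 to 34 with normexp, 69 with array weights, 23 by brightest probes alone, 7 with a stricter filter, 8 with an intensity trend and 0 without the muscle-rich pair or with either covariate, and ranged from 0 to 50 with 1 array left out (0 without miR-126-/- replicate 2, 50 without miR-126+/+ replicate 4). With the replicate number as a block, 0 member probes and 0 listed genes passed, and the count over all probes was 0; arrays of the same replicate number also share a slide column, so this is a column block too. Depth is not a measure of arrays, and all member probes were above background. The SEs of the 2 dim Rxra probes (0.17 and 0.14) were under that of the brighter Pparg probe (0.33).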
